A study of Mus musculus with 6 samples.

Results

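Transcripts that mark lymphocytes and natural killer (NK) cells were examined in mouse lung, as a set of 46 genes. A usable array probe measured 45 of them, among 22815 genes in all. The genes were picked by known function, with earlier results of these data known, and no measured value entered the list of genes. The set held 25 T cell genes, 12 genes of NK and cytotoxic cells and 9 B cell genes. Each gene was read from the probe with the highest mean signal over the 6 arrays. The lungs came from male C57BL6 mice aged 10 weeks, which were starved for 16 h and given bacterial lipopolysaccharide (LPS) at 20 mg/kg into the abdominal cavity. LPS is a cell wall component that causes endotoxaemia and lung injury. At 3 h and again at 24 h, 3 mice received saline and 3 received recombinant human thrombomodulin (rhTM), a soluble form of an endothelial anticoagulant protein. Lungs were taken at 30 h and hybridised to a 1-colour Agilent array, 1 array per mouse. All 6 mice had received LPS, so the comparison was of rhTM with saline after LPS, and no array of an untreated lung was analysed here.

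T cells recognise antigen through a receptor that signals by way of the CD3 chains, the kinases Lck and Zap70 and the adaptor Lat. NK cells carry germline-encoded receptors and kill target cells with perforin and granzymes, a machinery that they share with cytotoxic T cells, and they are a source of interferon gamma. B cells signal through the Cd79a and Cd79b chains of their receptor. In the lung these cells lie in the capillaries, the interstitium and small lymphoid aggregates, and circulating lymphocytes are known to fall in endotoxaemia. In whole tissue, fewer cells of a type and less RNA per cell cannot be told apart.

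The receptor and granule genes of NK cells shared their lowest array, as described further on, and so the stretches before the starts of some of them are shown. Sequences were taken from RefSeq (mouse build GRCm38.p6) and cover the 250 bases before the transcript start, written 5′ to 3′ on the strand of the gene. Capitals mark TGTGGT or its reverse complement ACCACA, the core letters bound by RUNX factors, which act in cytotoxic lymphocytes. Ifng is shown as a cytokine gene of the same lineage without these letters.
Gzmb, chr14:56262335-56262584, minus strand: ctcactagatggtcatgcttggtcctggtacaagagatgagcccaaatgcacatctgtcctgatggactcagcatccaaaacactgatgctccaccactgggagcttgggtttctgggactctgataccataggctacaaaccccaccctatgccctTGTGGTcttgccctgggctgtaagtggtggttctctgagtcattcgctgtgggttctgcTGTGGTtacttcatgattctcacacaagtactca
Gzma, chr13:113100982-113101231, minus strand: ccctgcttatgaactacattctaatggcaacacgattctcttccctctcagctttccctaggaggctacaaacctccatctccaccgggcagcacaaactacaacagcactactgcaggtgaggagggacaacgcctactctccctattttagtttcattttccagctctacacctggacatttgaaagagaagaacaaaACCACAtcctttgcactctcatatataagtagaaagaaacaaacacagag
Prf1, chr10:61297586-61297835, plus strand: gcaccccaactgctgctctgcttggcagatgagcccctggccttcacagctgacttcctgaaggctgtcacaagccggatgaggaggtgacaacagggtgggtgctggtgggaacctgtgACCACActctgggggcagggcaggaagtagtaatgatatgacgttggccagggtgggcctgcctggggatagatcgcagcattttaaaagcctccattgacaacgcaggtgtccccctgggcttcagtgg
Ncr1, chr7:4337465-4337714, plus strand: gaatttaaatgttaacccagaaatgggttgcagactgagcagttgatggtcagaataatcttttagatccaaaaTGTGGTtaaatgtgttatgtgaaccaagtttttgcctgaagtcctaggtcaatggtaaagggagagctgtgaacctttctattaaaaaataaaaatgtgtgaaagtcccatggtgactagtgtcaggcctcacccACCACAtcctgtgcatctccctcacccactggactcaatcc
Ifng, chr10:118440796-118441045, plus strand: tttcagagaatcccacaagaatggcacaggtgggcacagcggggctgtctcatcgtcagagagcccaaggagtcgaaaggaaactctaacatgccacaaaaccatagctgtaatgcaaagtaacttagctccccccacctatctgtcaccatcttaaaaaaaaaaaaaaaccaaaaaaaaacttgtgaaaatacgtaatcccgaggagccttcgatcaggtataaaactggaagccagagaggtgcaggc

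Promoters were found for 11 of the 12 NK and cytotoxic genes, with a pair of windows for Ncr1, and not for Klrd1. The RUNX letters occurred on either strand in 9 of these 12 windows (75%), against 4614 of 32851 windows of the same length over all genes (14.0%). Each of the 7 genes of surface receptors and granule proteins that had a window held them, while 1 of the 4 genes of cytokines and transcription factors did, namely Xcl1. T cell genes held them in 3 of 26 windows (11.5%) and B cell genes in 1 of 8 (12.5%). The letters GGTGTGA or TCACACC, bound by T-box factors such as Tbx21 and Eomes, were present in 2 of the 12 NK windows (16.7%), those of Nkg7 and Xcl1, and in 3.33% of all windows. No RUNX match overlapped a T-box match. Ifng and Eomes lacked the RUNX letters and were lowest on rhTM 2 like the receptor and granule genes. Tbx21 lacked them too and was lowest on rhTM 1, and Xcl1 held them and was lowest on rhTM 1. A link between the letters and the lowest array was not tested. These are matches of letters that were counted after the values were seen, and binding was not measured.

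The assignment and layout of the arrays bear on every value that follows. The authors' value table holds under saline 1 the values that the scanner file of rhTM 2 holds, and the reverse, with 99.9% of probes equal to within 0.1% after this exchange and 0.137% and 0.135% without it. Which of them carries the right labels could not be settled, so values are given from the scanner files as assigned, and the log2 fold change by the table is given beside that of each member tested in both. The arrays lay on 2 slides: saline 1 and rhTM 3 on slide 2 and the other 4 on slide 1. By the table's labels, slide 2 would hold rhTM 2 and rhTM 3. Between 36002 and 40503 probes per array were well above background (64.1% to 72.1%), and saline 1 had a spike-in slope of 0.826, outside the range that the scanner software accepts, against 1.07 to 1.09 on the others. A signal below is the processed signal divided by the 75th percentile of its array, and it is compared between arrays for 1 probe and never between genes. Signals were summed only over marker lists of other cell types, where the brightest probes weigh most.

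Of the 46 genes, 43 could be tested and none differed between rhTM and saline by limma at an adjusted p of 0.05. The lowest adjusted p among them was 0.9999. Of the 43, which had passed a detection filter, 40 were well above background on all 6 arrays. So were 15765 of the 16362 genes tested. Cd27, Bcl11b and Xcl1 passed the filter through the saline group alone, and Ctla4 and Blk did not pass it. Of all 16362 genes tested, 0% passed the adjusted threshold. At an unadjusted p under 0.05 there were 2 of the 43, the T cell factor gene Bcl11b and the NK receptor gene Ncr1, against 1.86% of all genes. In both, the 3 rhTM arrays lay below the 3 saline arrays, a pattern seen in 2.57% of all genes. Bcl11b passed the filter through the saline group, where it was the higher, with 1 rhTM array well above background, so its place in this count is tied to the filter. No member had all rhTM arrays above all saline arrays, which 2.95% of all genes had. After normexp, another background correction, 0 members had an unadjusted p under 0.05, where 197 of all 16362 genes did. The groups then did not overlap in 1 member that was higher and in 0 that were lower, a count not made over all genes. By the table, 42 members were tested, none passed the adjusted threshold (lowest adjusted p 0.32), and 4 had an unadjusted p under 0.05, against 14.0% of all genes. With 3 arrays a group, an exact permutation test of 1 gene could not go below a p of 0.10.

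By lineage, 13 of 23 T cell genes had a higher mean log2 signal with rhTM (median log2 fold change 0.03), as did 1 of 12 NK and cytotoxic genes (median -0.16) and 4 of 8 B cell genes (median -0.05). Over all genes tested, 8293 of 16362 were higher, with a median of 0.0026. By the table's labels the NK and cytotoxic median was above 0, at 0.22, with 8 of 11 genes higher, while T cell genes had 0.05 with 13 of 23 higher and B cell genes -0.19 with 2 of 8 higher. The arrays of 1 group differed more in the NK genes (median within-group SD 0.47 on the log2 scale) and B cell genes (0.41) than over all genes (0.21), and T cell genes were close to the latter (0.23).

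**Figure D1:**
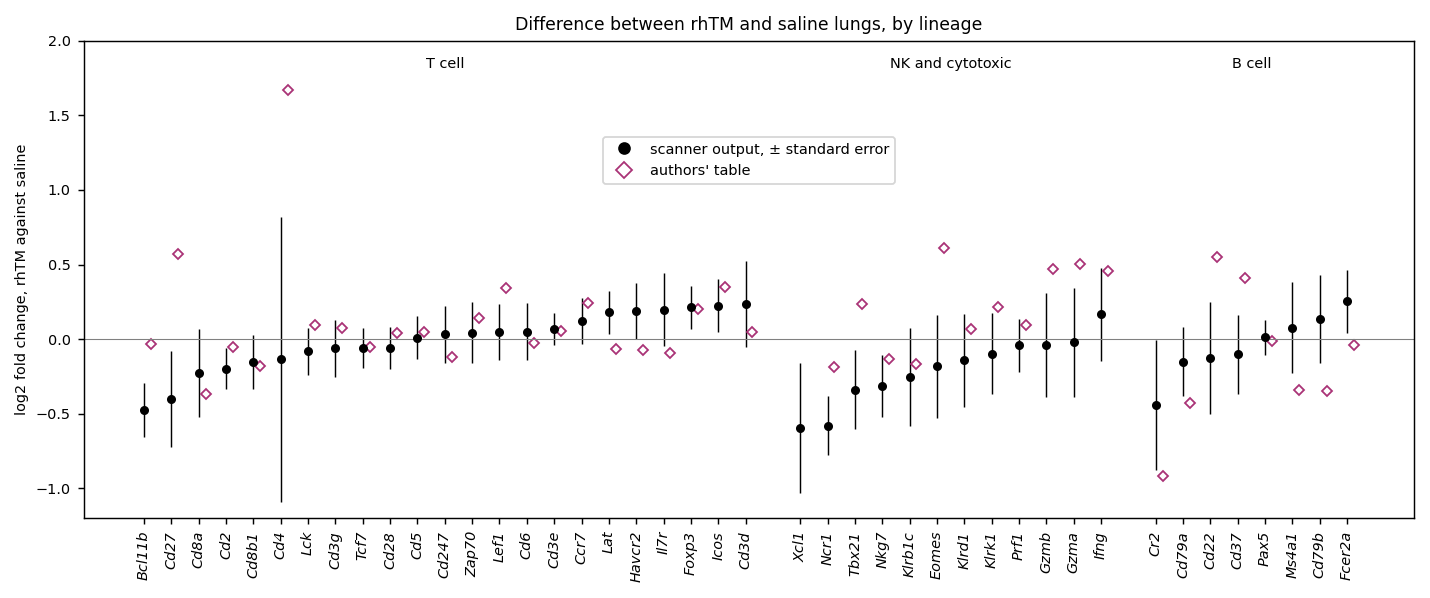
Log2 fold change of rhTM against saline (y axis) for each of the 43 tested genes (x axis), ordered within lineage. Black points with bars are the scanner output with its standard error and open diamonds are the authors' table, in which Xcl1 did not pass the filter. In the NK and cytotoxic genes 11 of 12 black points lie below 0, while 8 of 11 diamonds lie above it.

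The T cell receptor complex was close to level between the groups. Cd3e, the chain by which T cells are counted, gave signals of 1.44, 1.48 and 1.46 in saline 1 to 3 and 1.53, 1.46 and 1.59 in rhTM 1 to 3. The spread was small in both groups (mean 1.46 ± 0.0205 and 1.53 ± 0.066, SD, n = 3) and the ranges overlapped. Its log2 fold change was 0.07 ± 0.11 (SE), with a 95% interval of -0.19 to 0.32 (0.05 by the table). A second Cd3e probe gave 0.207, 0.107 and 0.0879 with saline and 0.089, 0.102 and 0.291 with rhTM. Its high arrays were those on slide 2, a step that the brighter probe did not show. Cd3d, another chain of the complex, had 0.886, 0.795 and 1.37 with saline and 1.62, 1.08 and 0.899 with rhTM. Saline 3 and rhTM 1 were the high arrays, and the log2 fold change was 0.24 ± 0.29 (0.05 by the table). Cd3g (-0.06, 0.07 by the table) and Cd247 (0.03, -0.12 by the table), the remaining CD3 and zeta chains measured, differed by less than their standard errors of 0.19.

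The brightest probe of Cd4, the coreceptor of helper T cells, was high on the slide 2 arrays. What sets this probe apart from the other Cd4 probe was not tested. It gave 22.6, 4.19 and 3.01 in saline 1 to 3 and 3.21, 3.45 and 19.4 in rhTM 1 to 3. The high arrays, 1 of each group by the scanner files and both rhTM by the table, stood 2.61 log2 units above the 4 arrays of slide 1. The log2 fold change between the groups was -0.14 ± 0.96, and by the table's labels it was 1.67 (adjusted p = 0.37 by limma). The second Cd4 probe gave 0.0491, 0.0374 and 0.0344 with saline and 0.0378, 0.0332 and 0.0456 with rhTM. On it the slide 2 arrays were also the highest, but by a small step. Cd8a, a chain of the cytotoxic coreceptor, had 0.054, 0.0552 and 0.101 with saline and 0.0693, 0.0624 and 0.0431 with rhTM (log2 fold change -0.23 ± 0.30, -0.37 by the table). The groups overlapped, with saline 3 highest. Its partner Cd8b1 differed by -0.15 ± 0.18 log2 units (-0.18 by the table).

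**Figure D2:**
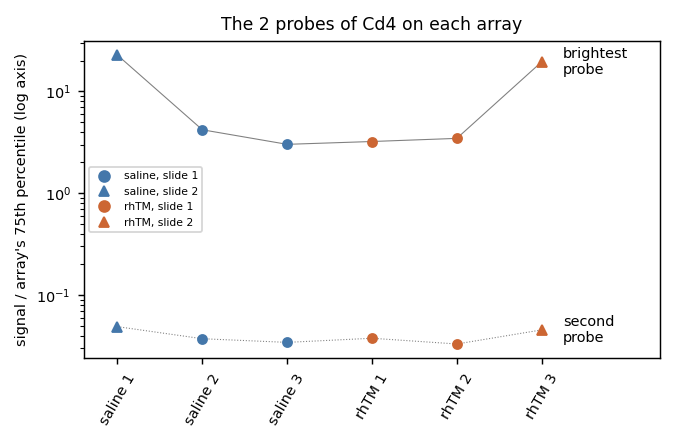
Signal divided by the 75th percentile of the array (y axis, log scale) for both Cd4 probes on the 6 arrays (x axis), with circles for slide 1 and triangles for slide 2. On the brightest probe both triangles, at 22.6 and 19.4, stand above the circles, which lie between 3.01 and 4.19.

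Among adhesion and costimulatory genes, Cd27, a receptor of the tumour necrosis factor family on resting lymphocytes, was the lowest. Its signals were 0.0659, 0.0375 and 0.0318 with saline and 0.034, 0.024 and 0.0418 with rhTM, with rhTM 2 lowest and 2 of the rhTM arrays well above background. The log2 fold change was -0.40 ± 0.32, and 0.57 by the table. Cd2 (-0.20, -0.05 by the table), Cd5 (0.01, 0.05), Cd6 (0.05, -0.03) and Cd28 (-0.06, 0.04), which bind partners on other cells or tune receptor signals, gave smaller differences. The kinases Lck (-0.08, 0.10 by the table) and Zap70 (0.04, 0.14) and the adaptor Lat (0.18, -0.07) had standard errors of 0.16, 0.20 and 0.15.

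Bcl11b, a factor that keeps the T cell identity, had the lowest T cell value. The signals were 0.0552, 0.0375 and 0.0423 with saline and 0.0279, 0.0349 and 0.0335 with rhTM, and 1 of the 3 rhTM arrays was well above background. All rhTM arrays lay below all saline arrays. The log2 fold change was -0.47 ± 0.18 (limma p = 0.0346 unadjusted, 0.9999 adjusted; exact two-sided permutation p = 0.10), -0.13 after normexp, and -0.03 by the table. Tcf7 (-0.06, -0.05 by the table) and Lef1 (0.05, 0.34), factors of naive T cells, Ccr7 (0.12, 0.24), their lymph node homing receptor, and Il7r (0.20, -0.09), their survival receptor, differed by less than 1 standard error in the scanner files.

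All 3 tested regulatory and checkpoint genes had higher means with rhTM, none past the test, and 2 of the 3 did by the table. Foxp3, the factor of regulatory T cells, had 0.0626, 0.0503 and 0.0491 with saline and 0.0568, 0.0632 and 0.0673 with rhTM. The lowest rhTM array lay below saline 1, and the log2 fold change was 0.21 ± 0.14 (0.21 by the table). Icos, a costimulator of activated T cells, had 0.16, 0.135 and 0.152 with saline and 0.214, 0.14 and 0.174 with rhTM. Here rhTM 1 was highest and rhTM 2 lay among the saline arrays (log2 fold change 0.23 ± 0.18, 0.35 by the table). Havcr2, an inhibitory receptor that myeloid cells also make, differed by 0.19 ± 0.19 log2 units (-0.07 by the table). Ctla4, an inhibitory receptor, was well above background on saline 2 and rhTM 1 alone and was not tested. Pdcd1, the inhibitory receptor PD-1, was not tested because its probe was an outlier spot on saline 1. On the other arrays it gave 0.155 and 0.19 with saline and 0.219, 0.202 and 0.269 with rhTM.

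**Figure D3:**
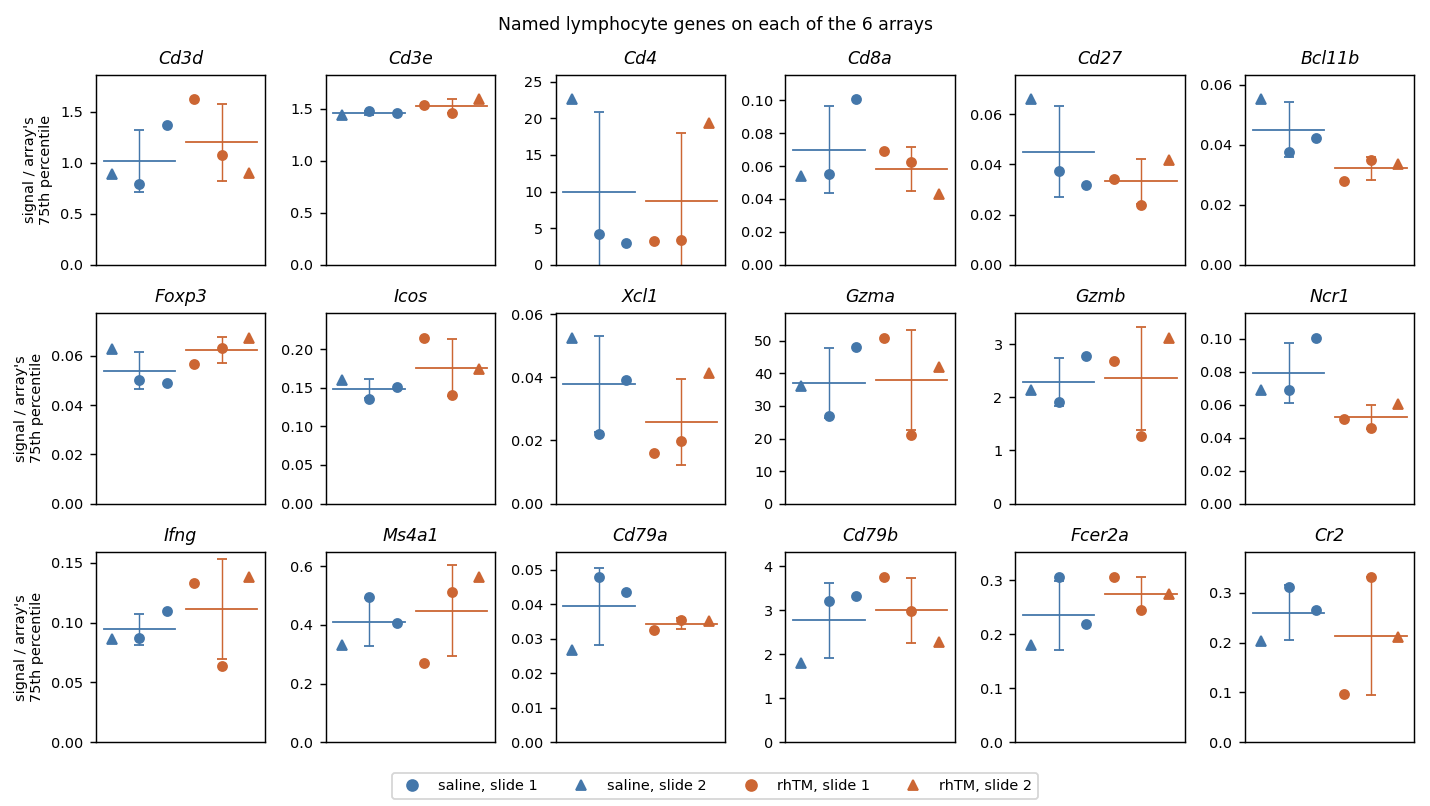
Signal divided by the 75th percentile of the array (y axes, each from 0) of the 18 genes described in full, with 3 saline and 3 rhTM arrays, circles for slide 1 and triangles for slide 2. Horizontal lines are group means and bars their SD, which for Cd4 run below the axis. The 3 rhTM arrays lie below the 3 saline arrays in Bcl11b and Ncr1 alone.

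The NK and cytotoxic genes shared their low arrays. On rhTM 2, 10 of the 12 genes were at their lowest (83.3%), which held for 12.4% of all genes. The other 2 were lowest on rhTM 1, as were 26.6% of all genes, and rhTM 3 was lowest for 18.9% of all genes. All 12 thus had their lowest array in the rhTM group. Xcl1, lowest on rhTM 1, passed the filter through the saline group alone, so its place in this count is tied to the filter. By the table's labels the array that was lowest for 10 of the 12 genes is saline 1. These 10 included all 4 receptors and all 4 granule proteins. The median of the 12 genes, each centred on its own mean over the arrays, was -0.08, -0.16 and 0.38 log2 units in saline 1 to 3 and 0.18, -0.48 and 0.21 in rhTM 1 to 3. Saline 3 was thus the highest array and rhTM 2 the lowest, and the other rhTM arrays lay above both remaining saline arrays. The roles differed on single arrays: the median of the receptors was -0.12 on saline 1 and 0.38 on rhTM 1, while that of the cytokines and transcription factors was 0.65 and -0.40 there. Without rhTM 2 or without saline 3 the median fold change of the lineage was above 0, at 0.02 and 0.03.

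**Figure D4:**
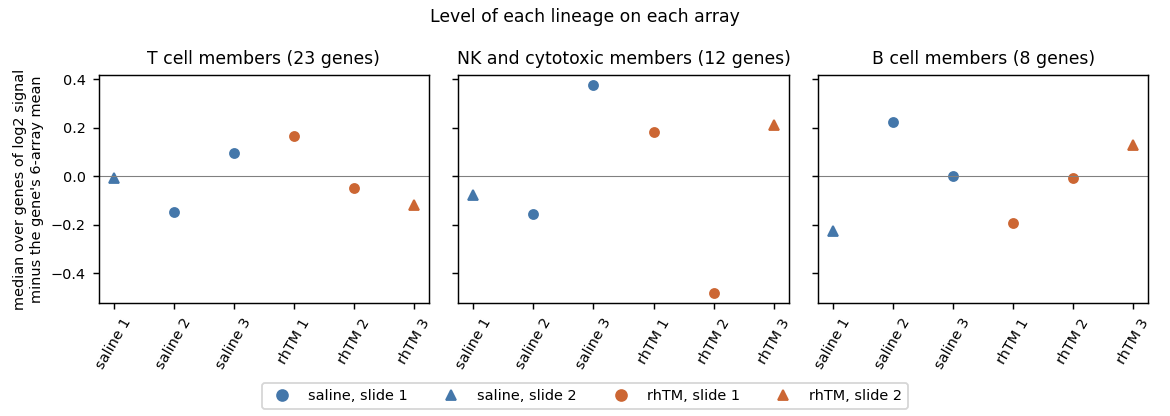
Median over the tested genes of a lineage of the log2 signal minus the 6-array mean of each gene (y axis, log2 units) on each array (x axis), with circles for slide 1 and triangles for slide 2. In the NK and cytotoxic panel rhTM 2 lies at -0.48 and saline 3 at 0.38, while T cell values stay between -0.15 and 0.16.

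Gzmb, the granzyme that triggers apoptosis in target cells, gave 2.15, 1.92 and 2.79 with saline and 2.69, 1.26 and 3.12 with rhTM. The group means were 2.28 ± 0.449 and 2.36 ± 0.97 (SD, n = 3), with the highest and the lowest array both in the rhTM group. Gzma, the other main granzyme, had 36.3, 26.8 and 48.2 with saline and 50.9, 21 and 42 with rhTM. It had the same extremes within the rhTM group, although here rhTM 1 was the highest. The log2 fold changes of Gzmb and Gzma were -0.04 ± 0.35 and -0.02 ± 0.37, and 0.47 and 0.50 by the table. The pore protein Prf1 (-0.04 ± 0.18, 0.10 by the table) and the granule membrane protein Nkg7 (-0.31 ± 0.21, -0.13 by the table) were likewise lowest on rhTM 2.

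Ncr1, the receptor NKp46 that is nearly restricted to NK cells and related innate lymphoid cells, had the lowest p of the set. Its signals were 0.0687, 0.0688 and 0.1 with saline and 0.0515, 0.0457 and 0.0606 with rhTM. All rhTM arrays lay below all saline arrays, and all 6 were well above background. The log2 fold change was -0.58 ± 0.20 (95% interval -1.05 to -0.11; limma p = 0.0222 unadjusted, 0.9999 adjusted; exact two-sided permutation p = 0.10), -0.23 with normexp and -0.19 by the table. The receptors Klrb1c (-0.25, -0.16 by the table), Klrd1 (-0.14, 0.07) and Klrk1 (-0.10, 0.22) differed by less than 1 standard error of 0.27 to 0.33, and all 3 Klrb1c probes had lower means with rhTM (-0.25, -0.33 and -0.31).

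Xcl1, a chemokine that draws cross-presenting dendritic cells, gave 0.0524, 0.0221 and 0.0391 with saline and 0.0161, 0.0199 and 0.0413 with rhTM, and 1 of the rhTM arrays was well above background. The slide 2 arrays were highest in each group (log2 fold change -0.59 ± 0.44, -0.11 with normexp). Ifng, the cytokine interferon gamma, had 0.086, 0.0876 and 0.109 with saline and 0.133, 0.0635 and 0.138 with rhTM. By the scanner files it was the only gene of the 12 with a higher mean log2 signal under rhTM, although rhTM 2 was the lowest array (0.17 ± 0.31, 0.46 by the table). The T-box factor genes Eomes (-0.18 ± 0.35, 0.61 by the table) and Tbx21 (-0.34 ± 0.26, 0.23 by the table) were highest on the slide 2 arrays.

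Within slide 1, which held 2 arrays of each group, all 12 NK and cytotoxic genes were lower with rhTM (median difference -0.28 log2 units). One of these rhTM arrays was rhTM 2, which the table labels saline, and by the table the contrast on this slide was of rhTM 1 alone against 3 saline arrays, with a median of 0.32. Within slide 2, where rhTM 3 met saline 1, 7 of 12 were higher (median 0.04). T cell genes had medians of 0.03 and 0.02 within slides 1 and 2. B cell genes had 2 of 8 higher within slide 1 (median -0.21) and 8 of 8 higher within slide 2 (0.25). All genes tested had medians of 0.0012 and -0.0032.

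B cell genes varied between arrays without a common split by treatment. Cd79a, a signalling chain of the B cell receptor, had 0.0266, 0.0479 and 0.0435 with saline and 0.0325, 0.0356 and 0.0352 with rhTM. The rhTM arrays were close together and lay within the saline range (log2 fold change -0.15 ± 0.23, -0.43 by the table). Cd79b, its partner, had 1.8, 3.21 and 3.33 with saline and 3.76, 2.98 and 2.28 with rhTM. Its lowest arrays were both on slide 2 (0.14 ± 0.29, -0.35 by the table). Ms4a1, which encodes CD20, had 0.331, 0.495 and 0.407 with saline and 0.271, 0.512 and 0.564 with rhTM, with rhTM 1 the lowest of all (0.08 ± 0.30, -0.34 by the table).

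Among the other B cell surface genes, Fcer2a, the low-affinity IgE receptor CD23, had the highest value. It gave 0.181, 0.305 and 0.219 with saline and 0.306, 0.245 and 0.274 with rhTM (log2 fold change 0.25 ± 0.21, -0.04 by the table), and saline 2 lay with the rhTM arrays. Cr2, the complement receptor CD21, had 0.203, 0.313 and 0.266 with saline and 0.0963, 0.332 and 0.211 with rhTM. The highest and lowest arrays were both in the rhTM group (-0.44 ± 0.44, -0.91 by the table). Cd22 (-0.13 ± 0.38, 0.55 by the table), an inhibitory coreceptor, Cd37 (-0.10 ± 0.26, 0.41 by the table), a tetraspanin, and Pax5 (0.01 ± 0.12, -0.02 by the table), the B cell identity factor, differed by less than their standard errors in the scanner files. Blk, a B cell kinase, was well above background on 2 saline arrays and on none of rhTM, and no fold is given because its saline level was below the detection floor of the rhTM arrays.

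Some members separated by slide, as many other genes did. Both slide 2 arrays lay above the 4 slide 1 arrays in 8 of the 43 (Cd4, Xcl1, Cd22, Eomes, Cd27, Tbx21, Cd37 and Ccr7), against 13.0% of all genes, and below them in 4 (Cd79b, Cd8a, Cd247 and Havcr2), against 19.7%. Cd4 and Xcl1 differed by more than 1 log2 unit between slides, as did 1.94% of all genes. The summed signal of the 3 tested markers of thymus or lymph node tissue was also higher on slide 2. It was 5.50 and 7.14 there against 2.33 to 3.06 on slide 1. Of these markers, Cd1d1 gave 1.77 and 2.56 on slide 2 and 1.44 to 2.315 on slide 1. Dntt gave 0.108 and 0.0737 against 0.0722 to 0.0804. Neither separated by slide, so the step in the sum was not shared by all markers. The part of this tissue in the members that separated was not tested. Other probes of those members did not always follow. The brightest Cd22 probe gave 1.17 and 1.21 on slide 2 and 0.547 to 0.713 on slide 1, while a dimmer one, also well above background on all 6 arrays, gave 0.149 and 0.159 against 0.116 to 0.183. The brightest Cd37 probe gave 6.62 and 7.02 on slide 2 and 3.88 to 4.98 on slide 1, while its second probe gave 0.817 and 0.615 against 0.736 to 1.02.

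By the table's labels, slide 2 holds rhTM arrays alone, and there treatment and slide are partly mixed. In that table Lef1, Ccr7 and Icos had all rhTM arrays above all saline arrays (9.68% of all genes did), and Cd79a and Cr2 had them below (12.0% of all genes). With slide as a block the table's contrast rests on rhTM 1 alone against 3 saline arrays, since the other rhTM arrays fill slide 2, and it assumes that the lone array varies like the others. Cr2 then had a log2 fold change of -1.65 (limma adjusted p = 0.0321), the 1 member to pass, where 2.65% of all genes did. Another Cr2 probe, well above background on all 6 arrays, gave 0.0682 on rhTM 1. The table's 3 saline arrays are rhTM 2, saline 2 and saline 3 of the scanner files. They gave 0.0871, 0.102 and 0.0647 on this probe, so that rhTM 1 lay within their range. The remaining Cr2 probe was well above background on 2 arrays. It gave 0.00649 on rhTM 1, its lowest array, and 0.0198, 0.0297 and 0.0209 on the same saline arrays. Without rhTM 1, when every rhTM array of the table lay on slide 2 and every saline array on slide 1, 3 members passed, Cd4 (2.57, limma adjusted p = 0.00383), Cd22 (0.92, 0.0221) and Eomes (0.91, 0.0292), where 3.56% of all genes did. Treatment and slide cannot be told apart in that last comparison.

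Further genes of these pathways were read from 5 lists, and no gene in them passed the adjusted threshold. Of 17 genes of T cell receptor signalling, 9 were higher with rhTM (median 0.01; 8 of 17 and -0.06 by the table), from Rasgrp1 (-0.34), an activator of Ras, to Sh2d1a (0.24), the adaptor SAP. Of 17 further NK and innate lymphoid genes, 6 were higher (median -0.12; 13 of 17 and 0.06 by the table). The lowest, Klre1, a lectin-like NK receptor, gave 0.0413, 0.0447 and 0.261 with saline and 0.0196, 0.0315 and 0.0388 with rhTM (-1.44 ± 0.71), so that saline 3 alone stood apart. It passed the filter through the saline group, with 2 rhTM arrays well above background, so that its difference is tied to the filter. All rhTM arrays lay below all saline arrays in it and, against 2.57% of all genes, in Gata3 (-0.26 ± 0.13), a factor of type 2 innate lymphoid and helper T cells, and all lay above, against 2.95% of all genes, in Rora (0.15 ± 0.12), a factor of the same innate cells. The highest, Crtam, an adhesion receptor of activated cytotoxic cells, was at 0.297 on rhTM 1 and between 0.0378 and 0.0714 elsewhere (0.53 ± 0.72). Of 22 genes of B cell receptor signalling and plasma cells, 15 were higher (median 0.14; 7 of 22 and -0.09 by the table), from Irf4 (-0.64) to Xbp1 (0.30), both factors of plasma cell differentiation. Of 20 homing receptors and chemokines, 8 were higher (median -0.04; 11 of 20 and 0.01 by the table), from the fractalkine receptor Cx3cr1 (-0.98 ± 0.60) to the egress receptor S1pr1 (0.28 ± 0.22), and the chemokine receptor Ccr2 (-0.19 ± 0.11), shared with monocytes, was lower on every rhTM array than on every saline array. Of 10 survival and death genes, 6 were higher (median 0.0017; 2 of 10 and -0.16 by the table), from the cytokine receptor chain Il2rg (-0.23) to the B cell survival factor Tnfsf13b (0.12).

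Markers of other cell types were read beside the lymphocyte genes, and none of them passed the adjusted threshold. On rhTM 2, where the NK genes were lowest, the summed signal of 11 neutrophil markers was 1390, the lowest of a range of 1390 to 1757, although only 2 of the 11 were at their lowest there. Sums were also lowest on rhTM 2 for 8 dendritic cell and class II markers (308 in a range of 308 to 451) and 5 erythroid markers (488 in a range of 488 to 669), with 1 marker of each list at its own lowest there. The sum of 12 monocyte and macrophage markers was there 754, the highest of a range of 686 to 754. On rhTM 1, 10 of 23 T cell genes were highest, as were 29.8% of all genes. Highest there too were 6 of 11 neutrophil, 5 of 8 platelet and 3 of 5 erythroid markers, with 0 of each list lowest there. Lowest on rhTM 1 were 6 of 8 alveolar type 2, 7 of 12 monocyte and macrophage and 5 of 8 endothelial markers, as were 26.6% of all genes. In these last lists, 1, 2 and 3 markers in turn were highest on that same array. Of 8 markers of thymus or lymph node tissue, 3 could be tested, with 1 higher and 2 lower under rhTM (median -0.06). The 1 higher was Cd1d1, a lipid-presenting molecule found on many cells (log2 fold change 0.49 ± 0.16), whose unadjusted limma p was 0.018 and adjusted p 0.9999. An unadjusted p under 0.05 was found in 1.86% of all genes. The part of these cell types in the lymphocyte values was not tested.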

How the data were processed

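Total RNA of 6 lungs was labelled with Cy3 and hybridised to 1-colour Agilent mouse arrays of 59305 spots (56605 probes). The authors deposited scanner output whose processed intensity is background-subtracted (Feature Extraction 10.7.3.1 per the file headers), and a value table whose intensity values match the same arrays, with the exchange described. Samples were grouped by the deposited labels. Probes flagged as outliers on any array (398) were dropped, 32803 probes were matched by accession to 22815 RefSeq genes, and the probe with the highest mean signal stood for each gene. Log2 intensity minus the 75th percentile of each array was computed from the deposited intensity and fitted with limma 3.58.1 in R 4.3.3 for 16362 genes that passed a detection filter (well above background throughout at least 1 group), with Benjamini-Hochberg adjustment. The test was checked on simulated data. The number of arrays limits the precision, and each array is a separate mouse per the labels.

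The rule for the genes used no measured value, but the genes and lists were chosen with earlier results of these data known. Values on every array are given for defining genes of each lineage (Cd3e, Cd4, Cd8a, Foxp3, Ncr1, Gzmb, Ifng, Cd79a and Ms4a1), for the 2 highest and 2 lowest tested genes of each lineage, and for genes with an unadjusted p under 0.05 or groups that do not overlap. Genes and probes named for the slide or for groups that do not overlap outside the 46 genes were chosen after their values were seen. Alternatives were normexp (offset 50), quantile and percentile scaling, the authors' table, filters, the probe rule, slide and replicate blocks, leaving out arrays, and the methods' t-test. RNA kits differ between the labels (RNeasy) and the study's methods (simplyRNA).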

Additional observations from a re-analysis of the deposited data

How the results depend on the processing

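No member passed the adjusted threshold under any alternative of the scanner output, leaving out each array included. With slide as a block in the authors' table, which leaves rhTM 1 alone against 3 saline arrays, 1 member passed, and 0 to 3 did when each array was left out in turn, Cd4 then being at 2.57 without rhTM 1 against 1.67 by the table with all arrays and -0.14 by the scanner files. The median of NK and cytotoxic genes, -0.16, was -0.07 with normexp, -0.15 with quantile scaling, -0.14 with the stricter filter, -0.01 without both exchanged arrays, 0.22 by the table and 0.32 by the table with slide as a block (rhTM 1 alone). Leaving out each array moved it from -0.32 to 0.03, and from 0.06 to 0.42 by the table (0.19 without rhTM 2). The same step moved the T cell median from -0.06 to 0.06 and the B cell median from -0.14 to 0.06. Of 18 genes described in full, 0 changed sign under the scaling and filter alternatives (15 of them could be fitted with the stricter filter), 7 of 17 did by the table, 6 did without both exchanged arrays, and leaving out 1 array turned 1 to 5 in the scanner files and 6 to 10 in the table. The replicate numbers did not pair the mice (deviations of same-numbered arrays correlated at -0.30, 0.44 and -0.45). With the replicate block, 0 members passed and 1 had an unadjusted p under 0.05, and over all genes 376 did against 305 without it. By the methods' t-test, 0 members had a fold of at least 2 with an unadjusted p under 0.01, by either source of values. Over all genes, 1 did by the scanner files and 14 by the table. After adjustment 0 members passed, as did 0 over all genes. An unadjusted p under 0.05 alone was found in 0 members by the scanner files (339 of 16362 over all genes). By the table it was found in 1 member (2066 of 16312 over all genes). The t-test on the table and the comparison of slides were chosen after seeing the data. With 3 mice a group, the limma interval of the tightly measured Cd3e was -0.19 to 0.32. Limma draws each variance toward that of the other genes, and the own within-group SD of Cd3e was 0.047 on the log2 scale. Small changes were thus not detectable by this test.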
